A study of Mus musculus with 9 samples.

Results

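The 86 genes described here encode the nuclear part of the oxidative phosphorylation complexes of the mouse. They were taken by symbol: names that start with Nduf, Uqcr, Atp5 or Cox4 to Cox8, together with Sdha, Sdhb, Sdhc, Sdhd, Cycs and Cyc1. They make up 86 of the 12393 genes that the arrays measured through a probe set with 1 gene symbol, and a gene with several probe sets is read through the brightest of them, averaged over the 9 arrays. The rule itself uses no expression difference, but it was set with earlier results of these data known. Among them, 38 belong to complex I (33 subunits and 5 assembly factors), 4 to complex II, 9 to complex III, 17 to complex IV and 17 to complex V, and 1 is cytochrome c. Ndufa4 is counted with complex IV, where the protein is now known to sit in spite of its name.

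RNA was taken from dendritic cells (DC) of the mouse spleen in 3 groups of 3 Affymetrix arrays each: cells treated with trichostatin A (TSA), cells treated with butyrate, and untreated cells. Both agents inhibit histone deacetylases, and the comparisons ask how this changes gene expression in DC. What the groups share is their source. The mice were 6 to 8 weeks old and carried B16 melanoma tumours that make Flt3L, a cytokine that expands DC, and the cells were purified on CD11c beads. The strain, the doses, the duration of treatment and the origin of the replicates (separate mice, pools or cultures) are not stated, so p-values measure the spread between these arrays, which may be technical. Levels are RMA values on the log2 scale, and a difference of 1 is a 2-fold change.

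Oxidative phosphorylation takes electrons from NADH at complex I and from succinate at complex II and passes them through coenzyme Q to complex III, then through cytochrome c to complex IV, where oxygen is reduced. Complexes I, III and IV pump protons across the inner mitochondrial membrane, and complex V, the ATP synthase, uses the returning protons to make ATP. Most subunits are encoded in the nucleus, each complex needs dedicated assembly factors, and the subunits made from mitochondrial DNA are not analysed here. In DC, activation by microbial products is known to shift energy metabolism from respiration towards glycolysis.

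The defining DC markers were present in all groups. Itgax, which encodes CD11c, averaged 8.25 on TSA, 8.50 on butyrate and 9.24 on untreated arrays, and Flt3 averaged 10.43 on TSA, 10.39 on butyrate and 11.02 on untreated arrays. Of 7 DC markers, 0 rose and 5 fell with TSA, and 1 rose and 4 fell with butyrate. Across all genes tested 26.3% rose and 21.0% fell with TSA, and 33.6% rose and 24.8% fell with butyrate. All 6 macrophage and monocyte markers fell with either treatment, and their summed linear level ran from 3032 to 3395 on TSA, 2387 to 2734 on butyrate and 5500 to 5811 on untreated arrays. Neutrophil markers summed to 27023 to 28327 on TSA, 33058 to 33730 on butyrate and 33042 to 34077 on untreated arrays, and erythroid markers to 4869 to 4970 on TSA, 5788 to 6024 on butyrate and 7606 to 8241 on untreated arrays. Such sums are set mainly by the brightest genes. Among the 6 neutrophil markers 0 rose and 4 fell with TSA, and 2 rose and 3 fell with butyrate. Among the 6 erythroid markers 0 rose and 5 fell with TSA, and 1 rose and 4 fell with butyrate. The B cell, T cell, NK cell and melanoma lists summed to at most 981 in any group. Among the 5 B cell markers 0 rose and 3 fell with TSA, and 0 rose and 2 fell with butyrate. The 3′ minus 5′ difference of the beta-actin control probe sets, a measure of RNA integrity, was 0.641 ± 0.042 on TSA, 0.682 ± 0.040 on butyrate and 0.432 ± 0.066 on untreated arrays (log2, SD, n = 3 each). For the Gapdh control the groups lay closer, at 0.192 ± 0.025 on TSA, 0.224 ± 0.037 on butyrate and 0.159 ± 0.014 on untreated arrays. The part of these shifts in the results below was not tested, and in bulk RNA fewer cells of a type and less RNA per cell cannot be told apart.

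On the RMA scale most of these genes rose by a small amount with TSA, with butyrate about as many rose as fell, and butyrate levels lay mostly below TSA levels. Of the 86 genes, 48 were higher and 14 lower on TSA than on untreated arrays at an adjusted p under 0.05 (limma, adjusted over all 12393 genes), and 24 were not called. Across all genes 26.3% were called higher and 21.0% lower in that comparison, against 55.8% and 16.3% of the 86 genes. The median change was 0.20 on the log2 scale for the 86 genes and 0.03 for all genes tested. Most of these genes are bright. When only the 6196 genes above the median level were tested, 42.9% were called higher and 33.0% lower with TSA, and of the 80 genes among them described here 50 were higher and 13 lower. The 86 genes also varied little between replicate arrays, with a median within-group SD of 0.037 against 0.080 for all genes, so that small changes pass the test.

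On butyrate arrays 31 of the 86 genes were higher and 28 lower than on untreated arrays, and 27 were not called. The background in this comparison was 33.6% higher and 24.8% lower, against 36.0% and 32.6% of the 86 genes, so the share of rises was near that of all genes. The median change was 0.05 for the 86 genes and 0.085 for all genes. Above the median level 39.9% of genes were higher and 40.6% lower, and 33 of the 80 genes were higher and 29 lower. These directions are relative to the scaling that RMA sets. The hybridization spike-ins, control transcripts added in equal amount, were 0.41 brighter on butyrate than on untreated arrays, and with the arrays set to equal spike-ins the median change of all genes moved to -0.33. Under that scaling 9 of the 86 genes were higher and 57 lower with butyrate, 18 of the 31 genes called higher turned negative, and the calls over all genes moved to 932 higher and 8417 lower in place of 4166 and 3075. With poly-A spike-ins, the controls added to the RNA sample, 8 of the 86 genes were higher and 32 lower, and all genes split into 828 higher and 3630 lower. The 9 genes that stayed higher under the hybridization scaling were Cox6b2, Ndufaf7, Cox5a, Ndufa6, Ndufv3, Atp5d, Ndufb10, Uqcrh and Cox7a2l, and all but Cox7a2l stayed higher under the poly-A scaling too. The 18 that turned negative under the hybridization scaling were Ndufv1, Ndufv2, Ndufab1, Ndufb6, Ndufb9, Ndufb11, Ndufc2, Ndufaf3, Sdhd, Uqcrfs1, Cycs, Cox4i1, Cox6a1, Cox6b1, Cox8b, Cox8c, Atp5c1 and Atp5h, and Ndufa12, Cyc1, Uqcr11 and Atp5pb kept their sign but lost the call. The changes given below are those on the RMA scale. The TSA arrays differed from the untreated arrays by 0.02 in the hybridization and 0.01 in the poly-A spike-ins, and no gene of the 86 called with TSA changed direction under either scaling, although Atp5b, Atp5l, Atp5md, Cox6c, Cox7a2, Ndufa2, Ndufb3, Ndufs4, Sdhc and Uqcrq lost the call with equal hybridization spike-ins. The poly-A controls varied more between arrays, and with them 28 genes were called higher and 6 lower with TSA.

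Set directly against TSA, butyrate arrays were higher for 3 of the 86 genes and lower for 47, where the background over all genes was 15.9% higher and 20.0% lower. The median difference was -0.17 for the 86 genes and 0.03 for all genes. Bright genes leaned the same way: among the 6196 genes above the median level 20.7% were higher and 38.8% lower on butyrate arrays (6 and 53 of the 80 genes), and with further quantile normalization 6 of the 86 genes were higher and 45 lower. The 3 rises were Ndufaf7, Ndufa6 and Ndufb9, and with equal hybridization spike-ins each of them turned negative, while 82 of the 86 genes were lower on butyrate arrays. Ndufb9 lay 0.12 ± 0.043 above TSA (adjusted p = 0.0496), a call that was lost on leaving out any 1 array. The 3 comparisons share arrays, so their results for a gene are given side by side and not as independent evidence.

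**Figure D1:**
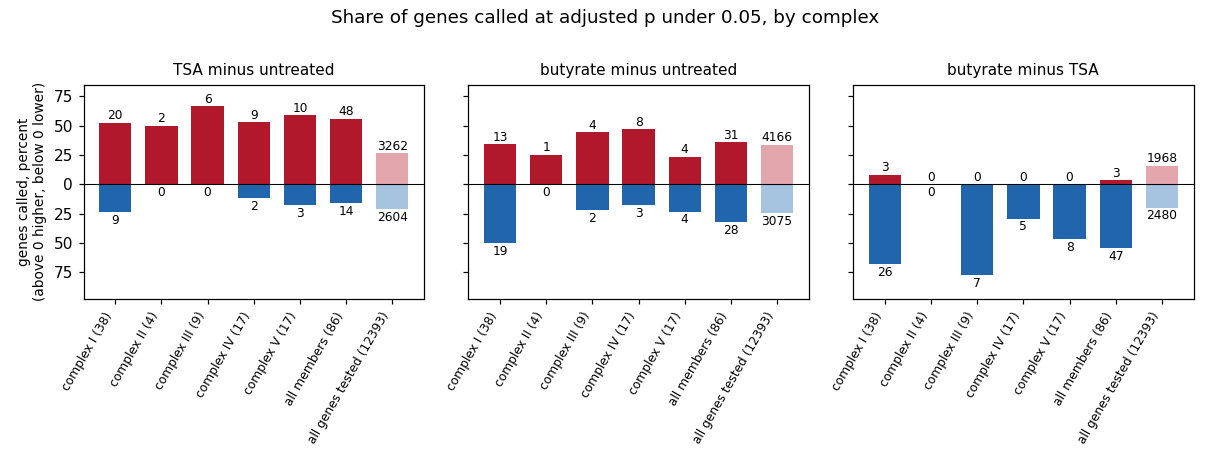
Percent of genes called higher (above 0) or lower (below 0) at an adjusted p under 0.05 in each complex, with the count on each bar, the number of genes in brackets and all 12393 tested genes in the palest bars. In the TSA comparison every complex has more rises than falls, in the butyrate comparison complex I has 13 rises and 19 falls (4 and 26 with equal hybridization spike-ins), and in the direct comparison falls outnumber rises in every complex with a call.

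Changes of 2-fold or more were rare. Cox6b2 passed 2-fold upwards with TSA, and Cox6b2 and Ndufaf7 did so with butyrate, while Cox6a2 and Ndufs8 fell by more than 2-fold with either agent. No gene of the 86 passed 2-fold between butyrate and TSA, where 0.0888% of all genes were at least 2-fold higher and 0.29% at least 2-fold lower. Over all genes 2.14% were called and at least 2-fold higher and 3.28% at least 2-fold lower with TSA, and 2.74% and 4.60% with butyrate.

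Promoters of these genes are known targets of the factor NRF1 and of ETS family factors such as GABPA. RefSeq promoter windows (build GRCm38.p6, 250 bases before to 50 after the start) were found for 71 of the 86 genes, 76 windows in all, and were searched on both strands. The NRF1 motif (GCGCA, any base, then GCGC) was in 22.4% of these windows, against 7.96% of the 12566 windows of all tested genes. The ETS motif CCGGAAG was in 23.7% against 14.0%, the YY1 motif AAGATGGCG in 7.89% against 2.31%, and the ERR motif TCAAGGTCA in 2.63% against 0.286%. A match is a run of letters, not a bound site. The 250 bases before the start are printed for 6 genes, with motif letters in capitals. Ndufa5 and Ndufaf4 have an NRF1 match and are among the genes with the widest gap between butyrate and TSA. Ndufa9 and Ndufaf1 also have a wide gap and have no NRF1 match. Of the 16 genes with the NRF1 motif 9 were lower and 1 higher on butyrate than on TSA arrays, with a median of -0.21. Of the 55 genes without it 31 were lower and 1 higher, with a median of -0.19. In this comparison 15.9% of all genes were higher and 20.0% lower. Cox6a1 and Sdhd, a ubiquitous subunit and a membrane anchor that rose with TSA, hold several matches. Cox6b2 and Ndufs8, the largest rise and the largest fall outside muscle isoforms, have 0 matches in the stretch shown, and the ETS match of Ndufs8 lies in the 50 bases after the start. Ndufa5 has more than 1 window, and the one further upstream is shown.
Ndufa5 (chr6:24527691-24527940, minus strand): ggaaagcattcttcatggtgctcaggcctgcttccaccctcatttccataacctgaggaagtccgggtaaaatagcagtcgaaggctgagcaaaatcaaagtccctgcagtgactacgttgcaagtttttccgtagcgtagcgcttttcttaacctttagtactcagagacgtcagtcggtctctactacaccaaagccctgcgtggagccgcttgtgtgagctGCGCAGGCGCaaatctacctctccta
Ndufaf4 (chr4:24897833-24898082, plus strand): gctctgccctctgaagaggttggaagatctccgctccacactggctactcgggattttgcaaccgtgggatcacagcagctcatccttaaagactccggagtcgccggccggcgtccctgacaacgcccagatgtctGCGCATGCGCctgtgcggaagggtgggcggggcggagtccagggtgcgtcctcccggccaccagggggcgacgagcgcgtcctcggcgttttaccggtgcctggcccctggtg
Cox6a1 (chr5:115348959-115349208, minus strand): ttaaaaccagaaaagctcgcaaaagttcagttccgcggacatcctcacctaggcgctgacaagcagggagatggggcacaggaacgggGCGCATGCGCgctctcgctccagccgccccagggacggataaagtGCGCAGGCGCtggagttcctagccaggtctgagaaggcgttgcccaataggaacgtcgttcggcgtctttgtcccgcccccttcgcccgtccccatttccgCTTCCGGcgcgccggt
Sdhd (chr9:50603850-50604099, minus strand): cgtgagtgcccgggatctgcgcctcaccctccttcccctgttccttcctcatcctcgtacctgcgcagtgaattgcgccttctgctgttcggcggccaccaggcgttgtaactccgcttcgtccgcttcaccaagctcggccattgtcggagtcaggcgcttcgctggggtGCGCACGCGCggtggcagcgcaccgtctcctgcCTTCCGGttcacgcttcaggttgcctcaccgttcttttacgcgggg
Cox6b2 (chr7:4753095-4753344, minus strand): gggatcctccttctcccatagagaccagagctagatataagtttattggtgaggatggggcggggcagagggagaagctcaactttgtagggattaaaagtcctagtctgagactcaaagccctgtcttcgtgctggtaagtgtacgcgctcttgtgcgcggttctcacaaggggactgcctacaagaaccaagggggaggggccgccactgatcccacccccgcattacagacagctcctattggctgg
Ndufs8 (chr19:3912775-3913024, minus strand): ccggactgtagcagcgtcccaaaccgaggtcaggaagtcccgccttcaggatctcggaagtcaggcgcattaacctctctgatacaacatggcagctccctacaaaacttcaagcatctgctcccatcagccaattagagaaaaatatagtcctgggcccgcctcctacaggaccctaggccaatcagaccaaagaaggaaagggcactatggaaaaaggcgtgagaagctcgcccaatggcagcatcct

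The changes of genes with and without these letters are given as a description with no test. As background, 26.3% of all genes rose and 21.0% fell with TSA, and 33.6% rose and 24.8% fell with butyrate. With TSA 10 of 16 genes with the NRF1 motif rose and 2 fell, with a median of 0.37, and 31 of 55 genes without it rose and 10 fell, with a median of 0.21. With butyrate 5 of the 16 rose and 5 fell, with a median of -0.05, and 22 of the 55 rose and 19 fell, with a median of 0.07. The 18 genes with the ETS motif had medians of 0.21 with TSA and 0.08 with butyrate, and the 53 without it 0.25 with TSA and 0.01 with butyrate. Of the 6 genes with the YY1 motif, Atp5j, Atp5j2, Ndufa9, Ndufc1, Ndufs4 and Ndufs7, 2 rose and 1 fell with TSA, and 0 rose and 5 fell with butyrate, with medians of 0.03 with TSA and -0.25 with butyrate. Of the 65 genes without it 39 rose and 11 fell with TSA, and 27 rose and 19 fell with butyrate, with medians of 0.36 with TSA and 0.08 with butyrate.

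Of the 38 genes of complex I, 20 rose and 9 fell with TSA, and 13 rose and 19 fell with butyrate, with medians of 0.19 with TSA and -0.15 with butyrate. With equal hybridization spike-ins 4 rose and 26 fell with butyrate, and with equal poly-A spike-ins 13 rose and 3 fell with TSA. Ndufv1, Ndufv2 and Ndufv3, the flavoprotein part that oxidizes NADH, rose with either agent on the RMA scale. Ndufv1, which carries the flavin that takes electrons from NADH, stood at 10.55, 10.49 and 10.50 on TSA and 10.24, 10.25 and 10.25 on butyrate, against 10.02, 10.05 and 10.01 on untreated arrays. The 3 groups did not overlap, with TSA highest, and the changes were 0.49 ± 0.043 with TSA and 0.22 ± 0.043 with butyrate (log2 ± SE, adjusted p = 4.98e-06 and 0.00128), the second of which turns negative with equal hybridization spike-ins. Ndufv3, an accessory subunit of this part, was the largest rise of complex I with TSA, at 10.97, 11.02 and 10.99 on TSA and 10.77, 10.82 and 10.76 on butyrate, against 10.03, 10.02 and 10.03 on untreated arrays. Every treated array lay above every untreated one, with changes of 0.97 ± 0.044 with TSA and 0.76 ± 0.044 with butyrate (adjusted p = 5.41e-08 and 1.66e-07). Ndufv2, an iron-sulfur subunit next to Ndufv1, rose by 0.55 with TSA and by 0.36 with butyrate, and Ndufa12, an accessory subunit of the same peripheral arm, by 0.66 with TSA and 0.50 with butyrate; with equal hybridization spike-ins the butyrate rise of Ndufv2 turns negative and that of Ndufa12 is lost. Ndufs1, the largest iron-sulfur subunit of the arm, changed by 0.14 with TSA (adjusted p = 0.0501, not called) and fell by 0.17 with butyrate. Ndufa7 and Ndufa2, further accessory subunits of the peripheral arm, fell with both agents, Ndufa7 by 0.41 with TSA and 0.31 with butyrate and Ndufa2 by 0.16 with TSA and 0.15 with butyrate, where the TSA call of Ndufa2 is lost under either spike-in scaling.

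In the part of the peripheral arm that hands electrons to coenzyme Q the 3 core subunits described here fell or were not called. Ndufs8, which carries a pair of iron-sulfur clusters on the path to coenzyme Q, had 9.78, 9.92 and 10 on TSA and 9.95, 9.99 and 10.02 on butyrate, against 10.99, 10.97 and 11.07 on untreated arrays. Treated and untreated arrays did not overlap, and TSA and butyrate arrays did. The changes were -1.11 ± 0.062 with TSA and -1.02 ± 0.062 with butyrate (adjusted p = 1.95e-07 and 2.44e-07). Of its 6 probe sets 5 fell with either agent, by -0.91 to -1.11 with TSA and -0.88 to -1.02 with butyrate, and the sixth changed by -0.02 with TSA and 0.09 with butyrate and was not called. Ndufs3 and Ndufs7, core subunits of the same part, changed by -0.02 and -0.01 with TSA, not called, and fell by 0.55 and 0.25 with butyrate. Ndufa9, a subunit of this arm that binds NADPH, had 10.10, 10.16 and 10.14 on TSA and 9.54, 9.41 and 9.56 on butyrate, against 10.05, 10.07 and 10.06 on untreated arrays. The butyrate arrays lay well below both other groups, by -0.55 ± 0.052 against untreated arrays and -0.63 ± 0.052 against TSA arrays (adjusted p = 6.25e-06 and 2.48e-05), while the TSA change of 0.07 was not called.

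Ndufa5, another subunit of the coenzyme Q arm, was called higher with TSA and lower with butyrate. It had 9.12, 9.17 and 9.14 on TSA and 8.36, 8.40 and 8.35 on butyrate, against 8.69, 8.63 and 8.74 on untreated arrays. The untreated arrays lay between the treated groups with no overlap, and the changes were 0.45 ± 0.048 with TSA and -0.32 ± 0.048 with butyrate (adjusted p = 1.76e-05 and 0.000208). Butyrate lay 0.77 ± 0.048 below TSA (adjusted p = 7.49e-06), and its other probe set gave 0.45, -0.30 and -0.74 for the 3 comparisons. Ndufs4, a subunit whose loss causes a Leigh-like brain disease in mice, had 9.40, 9.45 and 9.39 on TSA and 8.91, 8.99 and 9.05 on butyrate, against 9.20, 9.27 and 9.22 on untreated arrays. It too showed no overlap, with changes of 0.18 ± 0.051 with TSA and -0.24 ± 0.051 with butyrate (adjusted p = 0.0124 and 0.00217), and its TSA call is lost with equal hybridization spike-ins.

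The other supernumerary subunits, most of them in the membrane arm, were mixed. Ndufa6, which sits in the peripheral arm, had 10.81, 10.84 and 10.79 on TSA and 11.13, 11.03 and 11.02 on butyrate, against 10.13, 10.19 and 10.24 on untreated arrays. It is 1 of the 3 genes above TSA on butyrate arrays, by 0.25 ± 0.051 (adjusted p = 0.00437), a direction that turns with either spike-in scaling. Ndufb6 and Ndufb10, membrane arm subunits, rose by 0.68 and 0.57 with TSA and by 0.33 and 0.69 with butyrate, and Ndufb11 by 0.38 with TSA and 0.31 with butyrate. Ndufab1, the mitochondrial acyl carrier protein, rose by 0.55 with TSA and 0.41 with butyrate, and Ndufc2 by 0.52 with TSA and 0.27 with butyrate. The butyrate rises of Ndufb6, Ndufb11, Ndufab1 and Ndufc2 turn negative with equal hybridization spike-ins. Ndufa8, Ndufs5, Ndufa1 and Ndufb3 rose by 0.41, 0.37, 0.25 and 0.20 with TSA and were not called with butyrate, and Ndufb5 was not called with either. Others that fell with TSA and with butyrate were Ndufb2 (-0.46 with TSA and -0.74 with butyrate), Ndufb1 (-0.38 with TSA and -0.28 with butyrate), Ndufa13 (-0.32 with TSA and -0.29 with butyrate), Ndufc1 (-0.24 with TSA and -0.31 with butyrate) and Ndufb7 (-0.22 with TSA and -0.43 with butyrate). Ndufb1 is dim, at 6.63. Ndufa13, also known as GRIM-19, is an inner membrane subunit with a described role in cell death. Ndufa3, Ndufa10 and Ndufb8 were not called with TSA and fell by 0.31, 0.27 and 0.26 with butyrate, although for Ndufa10 a second, dim probe set at 5.89 was called the opposite way, at 0.22.

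**Figure D2:**
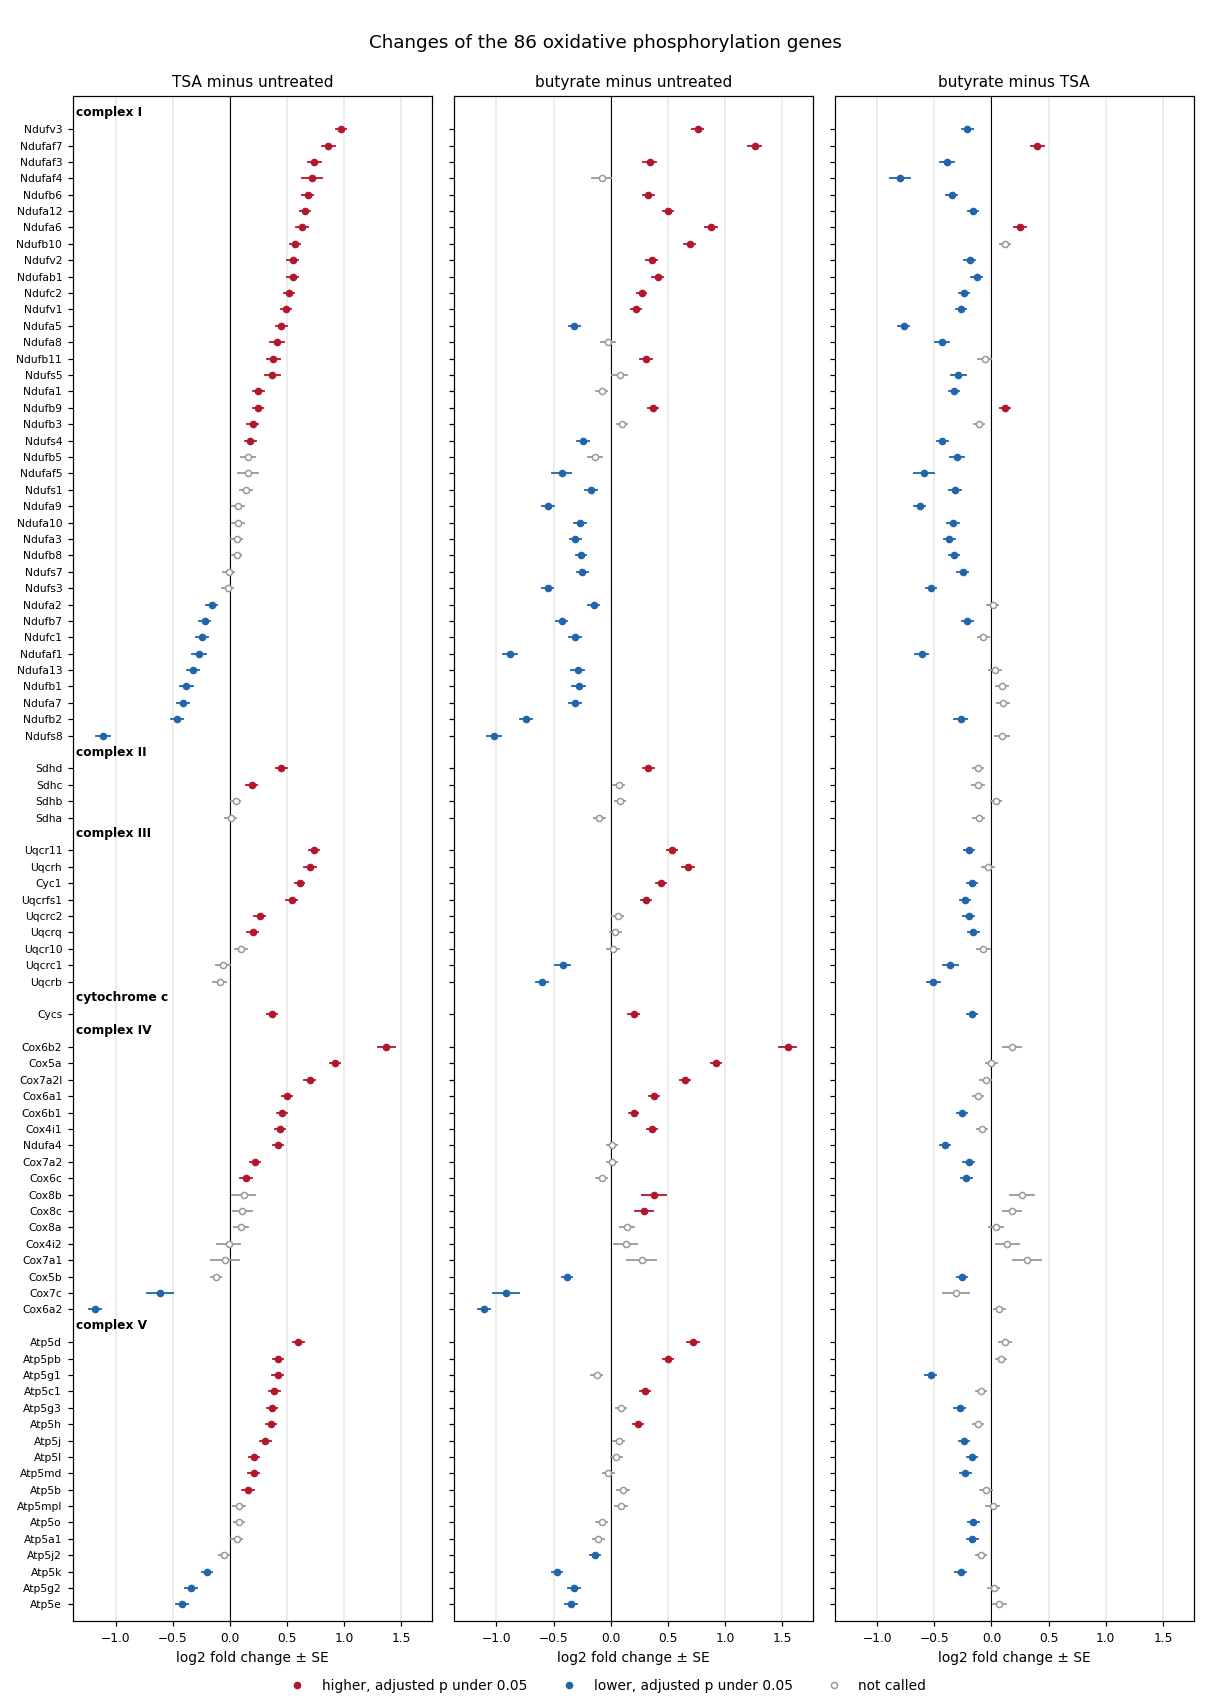
Log2 fold change with its standard error for each of the 86 genes, grouped by complex and ordered by the TSA change, with 1 panel for each of the 3 comparisons. Filled red and blue points passed an adjusted p under 0.05 and open grey points did not. Cox6b2 lies furthest right and Cox6a2 furthest left in both treatment panels, and the right panel is shifted to the left of 0 for 64 of 86 genes.

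The 5 complex I assembly factors were divided, with 3 rises and 1 fall with TSA and 2 rises and 2 falls with butyrate. Ndufaf7, which is needed early in the building of complex I, had 7.94, 7.94 and 8.01 on TSA and 8.29, 8.41 and 8.38 on butyrate, against 7.07, 7.19 and 7.04 on untreated arrays. The 3 groups did not overlap, with butyrate highest, and the changes were 0.86 ± 0.057 with TSA and 1.26 ± 0.057 with butyrate (adjusted p = 6.06e-07 and 3.23e-08). Ndufaf1, which helps build the membrane arm, had 7.24, 7.26 and 7.29 on TSA and 6.74, 6.54 and 6.67 on butyrate, against 7.58, 7.49 and 7.53 on untreated arrays. The groups did not overlap, with butyrate lowest, and the changes were -0.27 ± 0.058 with TSA and -0.88 ± 0.058 with butyrate (adjusted p = 0.00307 and 4.59e-07), and its TSA call is lost with equal poly-A spike-ins.

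Ndufaf3 and Ndufaf4 act together early in the assembly of the coenzyme Q arm. Ndufaf4 had 8.57, 8.52 and 8.37 on TSA and 7.68, 7.58 and 7.82 on butyrate, against 7.92, 7.75 and 7.64 on untreated arrays. Only the TSA arrays stood apart, 0.72 ± 0.087 above untreated and 0.80 ± 0.087 above butyrate arrays (adjusted p = 5.23e-05 and 0.000113), and the butyrate change of -0.08 was not called. Ndufaf3 rose by 0.74 with TSA and by 0.34 with butyrate, a butyrate rise that turns negative with equal hybridization spike-ins. Ndufaf5, which hydroxylates an arginine of Ndufs7, changed by 0.16 with TSA, not called, and fell by 0.43 with butyrate at a dim level of 6.65.

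Complex II, which is also the succinate dehydrogenase of the citric acid cycle, changed little on the RMA scale, where 2 of its 4 genes rose with TSA and 1 with butyrate and 0 fell. Its catalytic subunits were not called in any comparison on that scale. With equal hybridization spike-ins 0 genes were higher and 3, Sdha, Sdhb and Sdhc, lower with butyrate (median -0.34, in place of 0.08), and all 4 were lower on butyrate than on TSA arrays. Sdha, the flavoprotein, had 10.79, 10.77 and 10.80 on TSA and 10.67, 10.68 and 10.68 on butyrate, against 10.70, 10.82 and 10.82 on untreated arrays. The groups differed by at most 0.11, and butyrate and untreated arrays lay 0.10 ± 0.048 apart (adjusted p = 0.0887). Sdhb, the iron-sulfur subunit, changed by 0.05 ± 0.042 with TSA and 0.08 ± 0.042 with butyrate (adjusted p = 0.409 and 0.110). The membrane anchor Sdhd rose, with 10.33, 10.37 and 10.29 on TSA and 10.25, 10.17 and 10.22 on butyrate, against 9.89, 9.89 and 9.87 on untreated arrays. Its changes were 0.45 ± 0.046 with TSA and 0.33 ± 0.046 with butyrate (adjusted p = 1.56e-05 and 0.000127), and the second turns negative with equal hybridization spike-ins. The other anchor, Sdhc, rose by 0.19 ± 0.051 with TSA, a call that was lost when its other probe set entered by the mean of probe sets or by the largest spread.

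Complex III rose with TSA for 6 of 9 genes and fell for 0, and with butyrate for 4 and 2 (1 and 5 with equal hybridization spike-ins). That is 66.7% and 0.0% with TSA and 44.4% and 22.2% with butyrate, against the backgrounds given for complex I. With equal poly-A spike-ins 4 rose and 0 fell with TSA. Both subunits that carry electrons rose. Cyc1, cytochrome c1, had 10.37, 10.39 and 10.38 on TSA and 10.19, 10.22 and 10.23 on butyrate, against 9.76, 9.79 and 9.76 on untreated arrays, and Uqcrfs1, the Rieske iron-sulfur protein, rose by 0.54 with TSA and 0.31 with butyrate. The groups of Cyc1 did not overlap, TSA being highest, with changes of 0.61 ± 0.042 with TSA and 0.44 ± 0.042 with butyrate (adjusted p = 7.92e-07 and 6.53e-06); the butyrate call is lost under either spike-in scaling, and that of Uqcrfs1 turns negative with the hybridization controls. The small subunits Uqcr11 and Uqcrh, the hinge protein, rose by 0.74 and 0.70 with TSA and by 0.54 and 0.68 with butyrate. Uqcrb, which binds near the coenzyme Q site, had 12.17, 12.12 and 12.16 on TSA and 11.62, 11.64 and 11.68 on butyrate, against 12.13, 12.32 and 12.27 on untreated arrays. Butyrate arrays were lower than the other groups without overlap, by 0.60 ± 0.056 against untreated arrays (adjusted p = 6.65e-06), while TSA was not called. Uqcrq rose by 0.20 with TSA and was not called with butyrate, and Uqcr10 was not called with either. The core proteins parted: Uqcrc2 rose by 0.26 with TSA and was not called with butyrate, and Uqcrc1 was not called with TSA and fell by 0.42 with butyrate. Cycs, the mobile carrier between complexes III and IV that also triggers apoptosis when released, rose by 0.37 ± 0.046 with TSA and 0.20 ± 0.046 with butyrate (adjusted p = 6.00e-05 and 0.00394), but the butyrate rise turns negative with either spike-in scaling and the TSA call is lost with equal poly-A spike-ins.

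Complex IV, cytochrome c oxidase, combines ubiquitous subunits with isoforms that are typical of certain tissues. Of its 17 genes 9 rose and 2 fell with TSA, and 8 rose and 3 fell with butyrate (3 and 9 with equal hybridization spike-ins). That is 52.9% and 11.8% with TSA and 47.1% and 17.6% with butyrate, against the backgrounds given for complex I. Of the 9 ubiquitous subunits 6 rose and 1 fell with TSA, and 4 rose and 2 fell with butyrate. Cox5a had 12.92, 12.92 and 12.98 on TSA and 12.95, 12.95 and 12.92 on butyrate, against 12.05, 11.99 and 12.01 on untreated arrays. The treated groups overlapped with each other and lay far above the untreated arrays, by 0.92 ± 0.044 with either agent (adjusted p = 7.16e-08 and 4.59e-08). Cox6a1, Cox6b1 and Cox4i1 rose by 0.50, 0.46 and 0.44 with TSA and by 0.38, 0.20 and 0.36 with butyrate, and each of the butyrate rises turns negative with equal hybridization spike-ins. Cox7a2 and Cox6c rose by 0.22 and 0.14 with TSA and were not called with butyrate, and Cox8a was not called with either. Cox5b was not called with TSA and fell by 0.38 ± 0.046 with butyrate. Cox7c fell by 0.61 ± 0.114 with TSA and 0.92 ± 0.114 with butyrate (adjusted p = 0.00109 and 5.19e-05), but both of its probe sets are dim, at 6.87 and 4.85. Cox7a2l, a factor that joins complexes III and IV into supercomplexes, rose by 0.70 with TSA and 0.65 with butyrate, and Ndufa4 rose by 0.42 with TSA and was not called with butyrate.

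The tissue isoforms held the largest rise and the largest fall of the 86 genes. Cox6b2, known from testis, had 8.22, 8.18 and 8.16 on TSA and 8.34, 8.41 and 8.36 on butyrate, against 6.75, 6.70 and 7.01 on untreated arrays. Treated and untreated arrays were far apart, with changes of 1.37 ± 0.075 with TSA and 1.55 ± 0.075 with butyrate (adjusted p = 1.77e-07 and 5.11e-08). Cox6a2, known from heart and skeletal muscle, had 8.02, 7.92 and 8.02 on TSA and 8.04, 8.07 and 8.06 on butyrate, against 9.12, 9.14 and 9.24 on untreated arrays. It fell by 1.18 ± 0.051 with TSA and 1.11 ± 0.051 with butyrate (adjusted p = 4.53e-08 and 3.95e-08), with no overlap, whereas its ubiquitous counterpart Cox6a1 rose with both agents. Cox8b and Cox8c, isoforms of muscle and testis, rose by 0.38 and 0.29 with butyrate and were not called with TSA, and both rises turn negative with equal hybridization spike-ins. Cox8b is dim, at 6.08. Cox4i2 and Cox7a1, isoforms of lung and of muscle, were not called in any comparison and are dim, at 5.84 and 4.61.

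**Figure D3:**
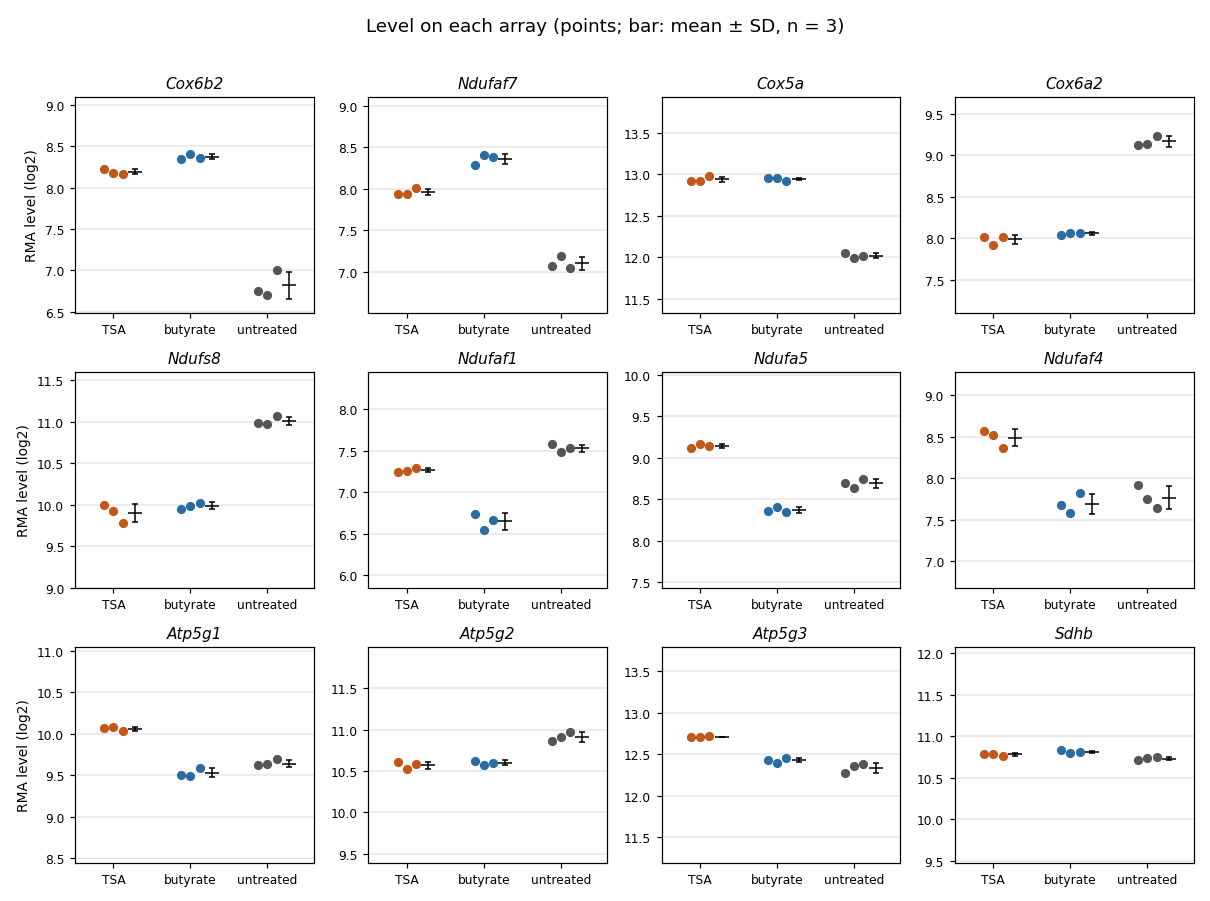
RMA level (log2) on each array for 12 genes, with TSA, butyrate and untreated arrays from left to right and the mean ± SD of 3 arrays beside each group; every panel spans the same range of log2 units. Cox6b2, Ndufaf7 and Cox5a lie higher and Cox6a2, Ndufs8 and Ndufaf1 lower on treated arrays, Ndufa5 lies above untreated with TSA and below it with butyrate, and Sdhb differs little on this scale.

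Complex V rose with TSA for 10 of 17 genes and fell for 3, and with butyrate 4 rose and 4 fell (1 and 13 with equal hybridization spike-ins). That is 58.8% and 17.6% with TSA and 23.5% and 23.5% with butyrate, against the backgrounds given for complex I. With equal poly-A spike-ins 3 rose and 1 fell with TSA. In the catalytic F1 head, the alpha subunit Atp5a1 was not called with either agent, and the beta subunit Atp5b rose by 0.16 ± 0.054 with TSA (adjusted p = 0.0316) and was not called with butyrate. The central stalk was uneven. Atp5d, its delta subunit, had 12.03, 12.04 and 11.96 on TSA and 12.16, 12.11 and 12.11 on butyrate, against 11.35, 11.42 and 11.46 on untreated arrays, and Atp5e, the epsilon subunit, had 11.14, 11.16 and 11.08 on TSA and 11.18, 11.26 and 11.13 on butyrate, against 11.52, 11.51 and 11.60 on untreated arrays. Treated arrays lay above untreated ones for Atp5d and below them for Atp5e, with no overlap in either case. Atp5d rose by 0.60 ± 0.050 with TSA and 0.72 ± 0.050 with butyrate (adjusted p = 3.09e-06 and 6.60e-07), and Atp5e fell by 0.42 ± 0.053 with TSA and 0.35 ± 0.053 with butyrate (adjusted p = 7.37e-05 and 0.000235). The gamma subunit Atp5c1 rose by 0.39 with TSA and 0.30 with butyrate, the butyrate rise turning negative with equal hybridization spike-ins.

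The c-ring, which turns as protons pass, is made from 3 genes that encode the same mature protein. Atp5g1 had 10.07, 10.08 and 10.03 on TSA and 9.50, 9.49 and 9.59 on butyrate, against 9.62, 9.63 and 9.69 on untreated arrays. TSA arrays lay highest and butyrate arrays just below untreated ones, with changes of 0.42 ± 0.048 with TSA and -0.12 ± 0.048 with butyrate (adjusted p = 3.61e-05 and 0.0616). Atp5g2 had 10.61, 10.52 and 10.59 on TSA and 10.62, 10.57 and 10.60 on butyrate, against 10.86, 10.91 and 10.97 on untreated arrays. It fell with both agents, by 0.34 ± 0.050 with TSA and 0.32 ± 0.050 with butyrate (adjusted p = 0.000196 and 0.000298), and its TSA call is lost with equal poly-A spike-ins or with the probe set of largest spread. Atp5g3 rose by 0.37 ± 0.047 with TSA and changed by 0.09 ± 0.047 with butyrate (adjusted p = 7.30e-05 and 0.140), and the TSA call is lost with equal poly-A spike-ins. In the peripheral stalk, which holds the head still, Atp5pb rose by 0.42 with TSA and 0.50 with butyrate and Atp5h by 0.36 with TSA and 0.24 with butyrate, where Atp5h turns negative with butyrate under the hybridization scaling. Atp5j rose by 0.31 with TSA and was not called with butyrate, and Atp5o, which ties the stalk to the head, was not called with either. Of the 5 membrane accessory subunits, which shape the dimer of the enzyme, Atp5k fell by 0.20 with TSA and 0.47 with butyrate, Atp5l and Atp5md rose by 0.21 each with TSA and were not called with butyrate, Atp5j2 fell by 0.14 with butyrate, and Atp5mpl was not called.

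Among the 46 genes with more than 1 probe set, all probe sets were called the same way for 25 with TSA, 25 with butyrate and 15 in the direct comparison, and Ndufa10 with butyrate was the 1 gene with opposite calls. Of the chosen probe sets 16 carry a suffix (_s_at or _x_at) that marks probes shared with other transcripts, so signals of near-identical copies cannot be told apart there, and Ndufaf7 and Cox7c are among them. Below the median gene level of 7.12 lay 6 of the 86 genes, at mean levels of 4.61 to 6.87.

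Factors that build or supply the complexes but fall outside the rule moved in both directions. Of 36 assembly factors, 17 rose and 11 fell with TSA (47.2% and 30.6%, against 26.3% and 21.0% of all genes), with a median of 0.07 and with 9 rises and 7 falls under equal poly-A spike-ins. With butyrate 11 rose and 17 fell (30.6% and 47.2%, against 33.6% and 24.8% of all genes), with a median of -0.11 and with 4 rises and 25 falls under equal hybridization spike-ins. Among the 30 of them above the median level 15 rose and 10 fell with TSA, and 10 rose and 14 fell with butyrate. The background at that level was 42.9% higher and 33.0% lower with TSA, and 39.9% higher and 40.6% lower with butyrate. Higd1a, a small protein that acts on complex IV under low oxygen, had 10.30, 10.37 and 10.33 on TSA and 9.76, 9.78 and 9.78 on butyrate, against 9.38, 9.34 and 9.29 on untreated arrays. The groups did not overlap, TSA being highest, at 0.99 ± 0.046 above untreated arrays, and butyrate at 0.43 ± 0.046 (adjusted p = 6.19e-08 and 1.61e-05). This butyrate rise is about the size of the spike-in difference of 0.41, and its call is lost with equal hybridization spike-ins. Of the 17 complex IV assembly factors 5 rose and 9 fell with butyrate. That is 29.4% and 52.9%, against 33.6% and 24.8% of all genes and 39.9% and 40.6% of those above the median level. The counts were 2 and 12 with equal hybridization spike-ins and 1 and 11 with equal poly-A spike-ins. Lrpprc, which stabilizes mitochondrial mRNAs and is needed for complex IV, had 8.03, 7.97 and 7.98 on TSA and 6.95, 6.68 and 7.01 on butyrate, against 7.58, 7.82 and 7.72 on untreated arrays. It rose by 0.29 ± 0.089 with TSA and fell by 0.82 ± 0.089 with butyrate (adjusted p = 0.0207 and 1.84e-05), without overlap, and its TSA call is lost with equal poly-A spike-ins. Uqcc2, a complex III assembly factor, fell by 0.95 with TSA and 0.75 with butyrate, and Bcs1l, which inserts the Rieske protein into complex III, rose by 0.71 with TSA and 0.73 with butyrate. Sco2, a copper chaperone of complex IV, fell by 0.82 with TSA and 1.14 with butyrate, and Cox17, another copper chaperone, rose by 0.38 with TSA and 0.62 with butyrate. Ecsit and Aifm1, complex I assembly factors with further roles in signalling and cell death, rose by 0.72 and 0.71 with TSA and by 0.55 and 0.45 with butyrate, where both butyrate calls are lost under either spike-in scaling.

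Of 9 coenzyme Q synthesis genes 5 rose and 1 fell with TSA (55.6% and 11.1%, against 26.3% and 21.0% of all genes). With butyrate 3 rose and 2 fell (33.3% and 22.2%, against 33.6% and 24.8% of all genes). With equal hybridization spike-ins 0 rose and 6 fell with butyrate. With equal poly-A spike-ins 2 rose and 1 fell with TSA. Coq7, a hydroxylase near the end of the pathway, fell in both comparisons, at -0.55 ± 0.102 with TSA and -0.68 ± 0.102 with butyrate. Its levels are dim, between 5.83 and 6.82. Of 8 genes of other enzymes that feed coenzyme Q, 2 rose and 2 fell with either agent, where 26.3% of all genes rose and 21.0% fell with TSA and 33.6% rose and 24.8% fell with butyrate. With equal hybridization spike-ins 1 of the 8 was higher and 6 were lower with butyrate (median -0.39). Etfb and Etfdh, which pass electrons from fatty acid oxidation, rose by 0.70 and 0.87 with TSA and by 0.92 and 0.54 with butyrate. The butyrate call of Etfdh is lost under either spike-in scaling. Chdh, choline dehydrogenase, fell by 0.81 with TSA and 1.13 with butyrate, and Gpd2, the mitochondrial glycerol-3-phosphate dehydrogenase, fell by 0.65 with TSA and was not called with butyrate.

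Of 18 regulators of mitochondrial DNA and biogenesis 7 rose and 6 fell with TSA (38.9% and 33.3%, against 26.3% and 21.0% of all genes). With butyrate 6 rose and 7 fell (33.3% and 38.9%, against 33.6% and 24.8% of all genes). Genes above the median level gave 42.9% and 33.0% with TSA and 39.9% and 40.6% with butyrate. With equal hybridization spike-ins 1 of the 18 rose and 12 fell with butyrate. Nrf1 and Gabpa, whose motifs are marked in the printed promoters, were not called: Nrf1 changed by -0.04 ± 0.057 with TSA and 0.05 ± 0.057 with butyrate, and Gabpa by -0.05 ± 0.057 with TSA and -0.07 ± 0.057 with butyrate. The coactivators of the PGC-1 family diverged. Pprc1 had 7.24, 7.06 and 7.19 on TSA and 6.24, 6.45 and 6.40 on butyrate, against 7.91, 8.11 and 8.05 on untreated arrays. The groups did not overlap, with falls of 0.86 ± 0.077 with TSA and 1.66 ± 0.077 with butyrate (adjusted p = 5.27e-06 and 3.83e-08). Ppargc1b rose by 0.57 with both agents, and Ppargc1a rose by 0.42 with TSA and 0.34 with butyrate at dim levels between 4.22 and 4.92. Their partner Esrra, a nuclear receptor, was not called with TSA and rose by 0.24 with butyrate; the butyrate rises of Ppargc1a and Esrra turn negative with equal hybridization spike-ins. Polg2, a subunit of the mitochondrial DNA polymerase, rose by 1.07 ± 0.072 with TSA and 1.32 ± 0.072 with butyrate (adjusted p = 7.12e-07 and 1.22e-07). Tfb1m, which methylates mitochondrial ribosomal RNA, rose by 0.61 with TSA and 0.58 with butyrate, and Tfam, which packages mitochondrial DNA, rose by 0.22 with TSA and was not called with butyrate. Under either spike-in scaling 1 of the 18 regulators, Polg2, stayed higher with butyrate, so the butyrate calls of Ppargc1b and Tfb1m are lost.

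**Figure D4:**
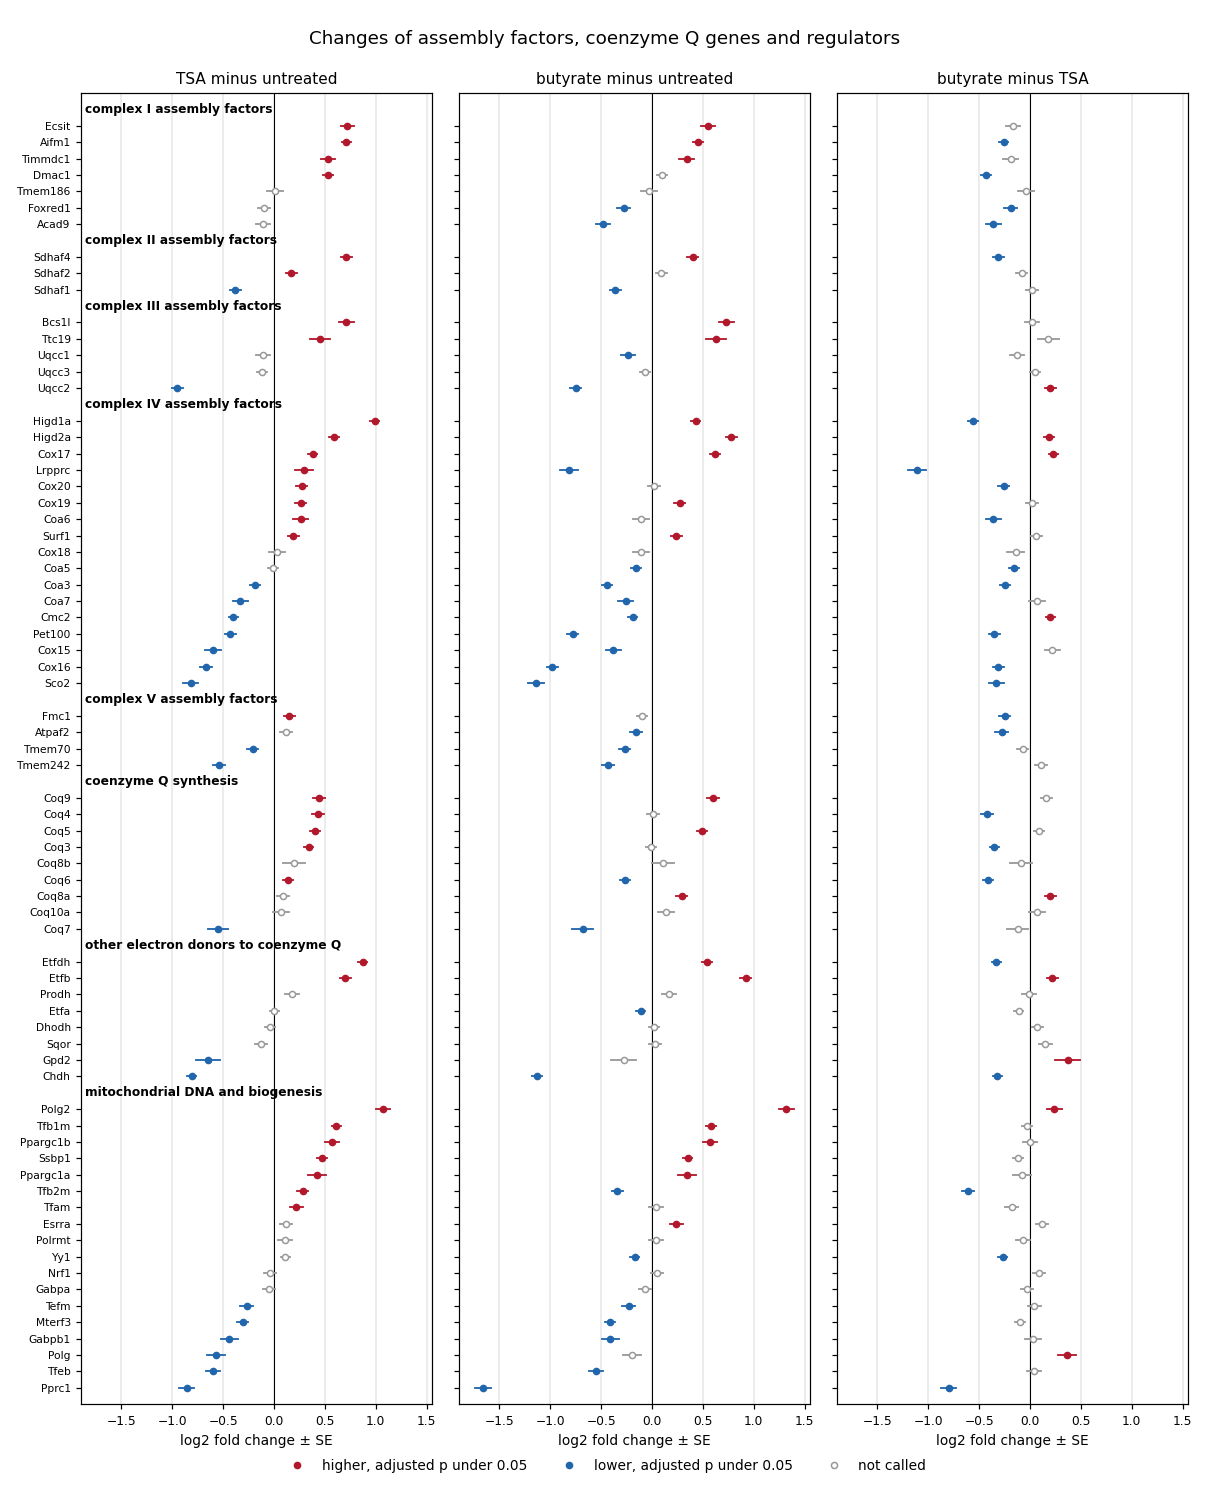
Log2 fold change with its standard error for assembly factors outside the rule, coenzyme Q genes, other electron donors and regulators, in the same layout and colours as the plot of the 86 genes. Polg2 lies furthest right and, in the butyrate panel, Pprc1 furthest left; Lrpprc is right of 0 with TSA and left of 0 with butyrate.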

How the data were processed

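Total RNA of 9 samples was measured on one-colour Affymetrix arrays, 3 per group as the labels give it. The deposited values are log2 expression levels from RMA, which the submitters' processing notes name as the authors' method. Its software and version are not stated. Of 22690 probe sets, 64 were controls, 20380 had 1 gene symbol, 691 several and 1555 none in the platform annotation; gene identifiers of 20351 matched RefSeq, which changed 0 symbols. Probe sets with several symbols were left out, and 3 of their names hold symbols of this kind without a counterpart among the 86 genes. Each gene was read through the probe set with the highest mean.

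The 12393 genes were fitted over all 9 arrays, with a mean for each group, by lmFit and eBayes of limma 3.58.1 under R 4.3.3 (6 residual and 3.9 prior degrees of freedom). P-values were adjusted by Benjamini-Hochberg over all genes within a comparison and calls made at 0.05. Errors of changes are limma's standard errors, n = 3 per group, and the number of arrays limits the precision. The fit was tested on simulated data. The genes and lists were chosen with earlier results of these data known. Named genes follow a rule: up to the 10 largest called rises and falls of each treatment whose arrays do not overlap (5 and 5 for butyrate against TSA), all of complex II, the tissue isoforms, the c-ring genes and electron-carrying subunits, and the called list genes with the largest changes; Ndufs4, Ndufs7, Ndufa3, Ndufa10 and Ndufb8 and other genes given by a change only were added after their values were seen, to account for each complex. Alternatives were other probe set choices, a filter on dim genes, further quantile normalization, 2 spike-in scalings, 6 arrays only, an intensity trend, a replicate block and leaving out each array. Across genes, arrays within a group correlated at 0.9971 to 0.9985 and arrays of different groups at 0.9664 to 0.9934, and no scan batch was analysed here.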

Additional observations from a re-analysis of the deposited data

How the results depend on the processing

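More of the 86 genes rose than fell with TSA under every alternative tried, while the butyrate counts turned with the spike-in scalings. With TSA the median change of the 86 genes was 0.161 with the mean of probe sets, 0.182 with the probe set of largest spread and 0.221 after further quantile normalization, and poly-A scaling left 28 rises and 6 falls. With butyrate the median was 0.03 with the probe set of largest spread and 0.086 after quantile normalization; hybridization scaling gave 9 rises, 57 falls and a median of -0.36, and poly-A scaling 8 rises and a median of -0.23. For butyrate against TSA the median was -0.14 with the mean of probe sets, -0.182 with the largest spread and -0.14 after quantile normalization; hybridization scaling gave 0 rises, 82 falls and a median of -0.567, and poly-A scaling 0 rises and a median of -0.439. The 3 rises against TSA became 6 with the filter on dim genes, 6 after quantile normalization, 5 with the 6 arrays only and 7 with the intensity trend. These spike-in scalings differ from RMA by construction, and which is closer to the true changes was not tested. Spike-ins of both kinds are added after RNA is taken from the cells, so neither scaling measures RNA per cell.

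Genes that reversed under hybridization scaling with butyrate were Atp5g3 (-0.329), Cox4i1 (-0.056), Cox4i2 (-0.286), Cox6a1 (-0.039), Cox6b1 (-0.217), Cox7a2 (-0.403), Cox8a (-0.277), Cox8b (-0.03), Cycs (-0.218), Ndufa4 (-0.402), Sdhb (-0.331), Sdhc (-0.348) and Sdhd (-0.086), among those followed one by one, and under poly-A scaling Cox6b1 (-0.087) and Cycs (-0.088). Against TSA, Ndufa6 (-0.154), Ndufaf7 (-0.001) and Ndufb9 (-0.28) reversed under hybridization scaling and Ndufa6 (-0.026) and Ndufb9 (-0.151) under poly-A scaling.

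Leaving out each array in turn gave 45 to 49 rises, 13 to 15 falls and a median of 0.187 to 0.223 with TSA; 31 to 32, 27 to 30 and 0.028 to 0.07 with butyrate; and 2 to 3, 42 to 46 and -0.17 to -0.161 for butyrate against TSA. The lowest butyrate median was without untreated replicate 1. In these fits 734 of the results for genes followed one by one kept direction and call, 9 lost the call, all of them Ndufb9 against TSA, and 4 gained it. Deviations of same-numbered arrays correlated between -0.12 and 0.21, and those of differently numbered arrays between -0.246 and 0.157. With 3 arrays per group these values cannot show whether the replicate numbers mark a shared mouse or day. With the replicate number as a block 47 genes rose and 14 fell with TSA, 31 and 28 with butyrate, and 2 and 44 against TSA, where Ndufb9 lost its call (adjusted p = 0.0922).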

Other observations

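Proteins of the complexes enter mitochondria through the TOM and TIM translocases. Of 19 import genes 12 rose and 1 fell with TSA (63.2% and 5.26%, against 26.3% and 21.0% of all genes and 42.9% and 33.0% of those above the median level), and 7 rose and 0 fell with equal poly-A spike-ins. With butyrate 5 rose and 7 fell (26.3% and 36.8%, against 33.6% and 24.8% of all genes). Genes above the median level gave 39.9% and 40.6% with butyrate. With equal hybridization spike-ins 1 of the 19 rose and 14 fell with butyrate. Tomm20, a receptor on the outer membrane, rose by 0.82 ± 0.046 with TSA and 0.86 ± 0.046 with butyrate. Hspa9, the matrix chaperone that pulls proteins in, averaged 9.60 on TSA and 8.65 on butyrate, against 9.10 on untreated arrays, so that it rose by 0.50 ± 0.060 with TSA and fell by 0.46 ± 0.060 with butyrate (adjusted p = 5.43e-05 and 8.71e-05). Timm10, a chaperone between the membranes, was not called with TSA and fell by 0.80 ± 0.064 with butyrate.

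The inner membrane folds into cristae, which hold the complexes. Of 9 genes of cristae shape 4 rose and 3 fell with TSA (44.4% and 33.3%, against 26.3% and 21.0% of all genes). With butyrate 4 rose and 5 fell (44.4% and 55.6%, against 33.6% and 24.8% of all genes). Genes above the median level gave 42.9% and 33.0% with TSA and 39.9% and 40.6% with butyrate. The butyrate counts of the 9 genes were 1 and 5 with equal hybridization spike-ins and 0 and 5 with equal poly-A spike-ins. Micos10 and Micos13, small subunits of the MICOS complex, rose by 0.57 and 0.51 with TSA and by 0.63 and 0.33 with butyrate, where Micos13 turns negative under the hybridization scaling. Opa1, the fusion protein of the inner membrane, was not called with TSA and fell by 0.86 ± 0.074 with butyrate. Apool, another MICOS subunit, fell by 0.50 ± 0.093 with TSA and 1.33 ± 0.093 with butyrate. Of 5 genes for uncoupling and for the exchange of ADP, ATP and phosphate, 3 rose and 0 fell with TSA and 4 rose and 0 fell with butyrate. Across all genes 26.3% rose and 21.0% fell with TSA, and 33.6% rose and 24.8% fell with butyrate. With equal hybridization spike-ins 0 of the 5 genes rose and 2 fell with butyrate. With equal poly-A spike-ins the calls of this list are lost with both agents.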
